A study of Mus musculus with 60 samples.

Results

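Kidneys of 10 mice that lack Bmal1 in the renal tubule were compared at 2 times of day, 5 at ZT20 and 5 at ZT08, out of 60 mice in the series. All 10 were chosen by their labels alone, as the mice of the cKO genotype (cKOt mice here) at these zeitgeber times. ZT0 is lights on under a 12-hour light and 12-hour dark cycle, so ZT08 is midday of the resting phase and ZT20 is late night. The series holds 2 genotypes at 6 times, with 5 male mice in each group. The cKOt mice carried Bmal1lox/lox, Pax8-rtTA and LC1 Cre on a C57BL/6J background. Their control littermates carried Bmal1lox/lox only. Both genotypes drank doxycycline at 2 mg/ml with sucrose for 2 weeks from 8 weeks of age, and both had free access to water and standard chow. Kidneys were collected about a month after doxycycline. Pax8-rtTA directs the inducible Cre to the epithelium along the tubule, so glomerular, vascular, interstitial and immune cells keep Bmal1. The labels name the tissue as renal tubule, whereas the methods describe frozen half-kidneys. Markers of cells outside the tubule were measured in all 10 libraries: the 5 podocyte markers summed to 295 to 395 CPM and the 7 endothelial markers to 409 to 518 CPM. Levels in CPM are counts scaled to the total on genes of each library after TMM normalization. In such bulk tissue, fewer cells of a type and less RNA per cell cannot be told apart. The authors kept 5 of 6 mice per group by RNA integrity and distance from the other mice.

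The mammalian clock is a transcriptional loop in which BMAL1, encoded by Arntl, pairs with CLOCK and activates the Per, Cry, Nr1d and Dbp genes, whose products repress the pair or relay its timing. Peripheral organs also receive daily signals from outside, such as feeding, hormones and body temperature. Mice eat and are warmer at night. Heat shock factor targets, genes of lipid synthesis and genes of the endoplasmic reticulum (ER) are known to follow such systemic cues, whereas fatty acid oxidation genes under PPAR control are known to follow fasting. The contrast of ZT20 against ZT08 within cKOt mice asks which transcripts still differ between late night and midday when the tubular clock is disabled.

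The 10 libraries held 18092002 to 20906706 counts on genes. Depth, the share of counts in the 10 highest genes, the mitochondrial share and the summed levels of 16 marker lists gave no difference between ZT20 and ZT08 that passed an exact two-sided permutation test (24 measures, adjusted p = 1 each, smallest p possible 0.0079). After adjustment over 24 measures, a difference in 1 measure alone could not have passed, even at that smallest p. A summed level also mostly follows its most abundant members. These tests therefore cannot show that the libraries or their cell types were alike. Of the marker lists, the proximal tubule list had 2 of 9 members called lower, Slc34a1 and Slc5a12, and 8 of the 9 had log2 fold changes below 0 (median -0.12). The Slc34a1 call was lost in 4 of the 18 other fits described in the next paragraph. The collecting duct list had 1 of 5 called in each direction, and the endothelial list had 1 of 7 in each direction. Over all genes tested, 6.78% were called higher and 7.64% lower. Havcr1 and Lcn2, both genes of injured tubules, were called higher among 5 injury markers, with mean levels of 1.03 CPM at ZT08 and 2.71 CPM at ZT20 for Havcr1 and of 1.15 and 2.32 CPM for Lcn2. The Havcr1 call was lost in 2 of those fits. The other 3 injury markers were not called, and 2 of the 5 had log2 fold changes below 0. The summed level of the 5 was 564.1 ± 63.3 CPM at ZT08 and 564.4 ± 55.3 CPM at ZT20 (SD, n = 5 each). Ighm, an immunoglobulin chain of B cells, was called higher, with 7.36, 5.84, 13.0, 6.54 and 6.92 CPM at ZT08 and 11.6, 30.9, 5.19, 24.1 and 9.44 CPM at ZT20, so that its groups overlapped, and its call was lost in 10 of those fits. No member was called in the lists for thick ascending limb, distal convoluted tubule, intercalated cells, podocytes, fibroblasts, macrophages, T cells, blood, adipocytes, adrenal cortex or liver-secreted transcripts.

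Of 15546 genes tested, 2242 (14.4%) differed between ZT20 and ZT08 in cKOt mice at an adjusted p under 0.05. At ZT20, 1054 were higher (6.78% of those tested) and 1188 were lower (7.64%). Most differences were small. The median absolute log2 fold change of the called genes was 0.30, with 356 called genes at a fold of at least 1.5 (143 higher, 213 lower) and 107 at a fold of at least 2 (40 higher, 67 lower). The 5 mice of one time lay entirely above the 5 of the other in 984 genes (6.33% of those tested), of which 824 were called. Calls were made by edgeR's quasi-likelihood test across all 60 mice with 2 factors of unwanted variation (RUVs) as covariates. Log2 fold changes are therefore adjusted for those factors, while the CPM values given for each mouse are not. Without replicate 2 of ZT08 the number called was 1480. A fit of the 10 mice alone, without the factors, called 557, and 8 mice compared within library batches 1 to 4 gave 16 calls. In those 8 mice, 2241 of the 2242 genes had the same sign, which is no independent evidence since the mice are a subset. Besides the fits of these 10 and 8 mice, 18 other fits held at least 9 of the 10 mice, and a named call that was lost in any of them is stated with its gene.

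**Figure D1:**
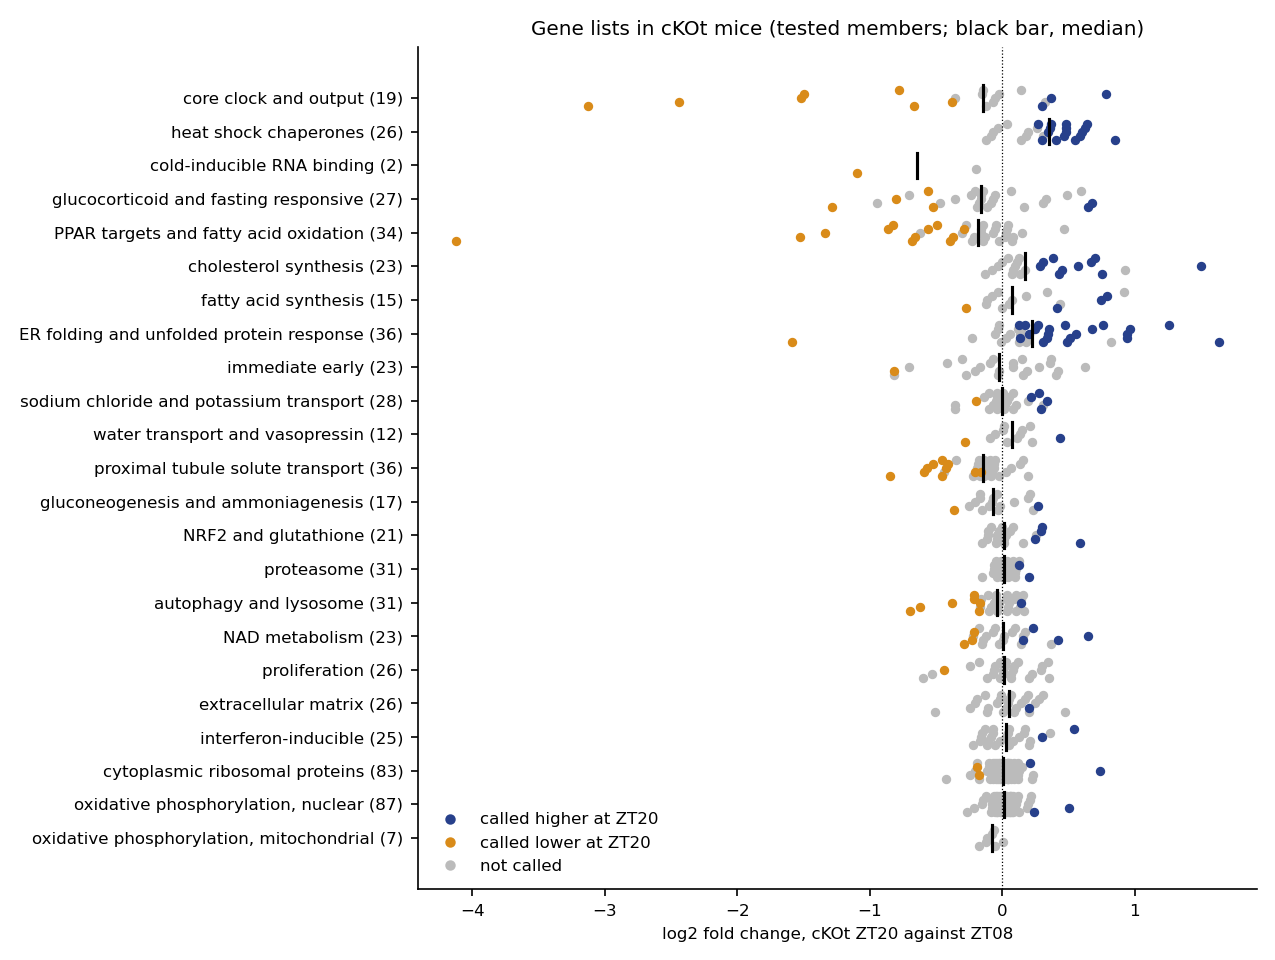
Log2 fold change of every tested member of 23 gene lists in cKOt mice at ZT20 against ZT08, with the number tested in brackets. Blue points were called higher, orange points were called lower, grey points were not called, and a black bar marks the median. Of the heat shock chaperones 22 of 26 lie to the right of 0 (median 0.36), and of the proximal tubule transporters 31 of 36 lie to the left (median -0.14).

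The targeted gene was examined first. Arntl (ENSMUSG00000055116, chromosome 7 from 113207465 to 113314126 on the plus strand, GRCm38) measured 15.3, 19.0, 18.7, 19.2 and 20.6 CPM at ZT08 and 21.5, 25.1, 24.3, 24.0 and 22.7 CPM at ZT20 in cKOt mice. These levels did not overlap, but the difference was not called (log2 fold change 0.32 ± 0.21 (SE), adjusted p = 0.34), and it passed the threshold in 1 of the other fits. In control mice Arntl was 4.17, 2.59, 2.12, 2.36 and 2.40 CPM at ZT08 and 46.4, 43.7, 50.8, 51.6 and 43.8 CPM at ZT20, so that the cKOt levels lay between the control extremes at both times. The counts cover all exons, and RNA from the recombined allele is counted with them. The day-night change of Arntl differed between genotypes (difference of log2 fold changes -3.74 ± 0.34 (SE), adjusted p = 6.14e-11).

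Of 19 genes of the core clock and its output, 3 were called higher and 7 lower at ZT20 in cKOt mice, against 6.78% and 7.64% of all genes. Nr1d1, which encodes the repressor REV-ERBα, changed most. Its level was 29.2, 17.8, 19.3, 29.1 and 21.7 CPM at ZT08 and 4.61, 2.05, 2.12, 1.36 and 2.08 CPM at ZT20 (log2 fold change -3.12 ± 0.28 (SE), adjusted p = 7.54e-11). The groups were far apart, and 1 mouse at ZT20 lay above the other 4. Its paralogue Nr1d2 was 58.3, 61.4, 53.3, 48.0 and 53.0 CPM at ZT08 and 27.7, 18.3, 18.5, 16.4 and 20.1 CPM at ZT20 (log2 fold change -1.51 ± 0.15 (SE), adjusted p = 8.51e-10), again without overlap. Dbp, a PAR bZIP factor that relays clock timing to output genes, was 18.5, 11.1, 12.9, 20.0 and 12.0 CPM at ZT08 and 3.35, 1.90, 1.801, 2.51 and 2.99 CPM at ZT20 (log2 fold change -2.44 ± 0.24 (SE), adjusted p = 3.56e-10). All 5 mice at ZT08 were above all 5 at ZT20. The related factor Tef was 267, 249, 253, 302 and 246 CPM at ZT08 and 208, 192, 205, 185 and 210.5 CPM at ZT20 (log2 fold change -0.38 ± 0.09 (SE), adjusted p = 0.00318), a much smaller change.

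Period genes went in different directions. Per2, a repressor of the loop that also responds to systemic signals, was 38.8, 34.5, 34.8, 39.2 and 39.3 CPM at ZT08 and 56.0, 72.7, 60.5, 64.6 and 55.0 CPM at ZT20 (log2 fold change 0.78 ± 0.17 (SE), adjusted p = 8.21e-04), and the groups did not overlap. Per3 was 19.0, 18.3, 13.6, 21.3 and 15.7 CPM at ZT08 and 12.6, 10.4, 11.0, 8.99 and 12.6 CPM at ZT20 (log2 fold change -0.66 ± 0.17 (SE), adjusted p = 0.00519). Per1 was not called, at 23.3 ± 10.4 CPM (SD, n = 5) and 16.8 ± 5.45 CPM (SD, n = 5). Thus 1 period gene was higher, 1 was lower and 1 could not be separated from the spread between mice. Cry1, a repressor, was 26.2, 24.9, 27.5, 27.2 and 29.4 CPM at ZT08 and 38.6, 37.4, 33.8, 34.0 and 30.8 CPM at ZT20 (log2 fold change 0.37 ± 0.10 (SE), adjusted p = 0.0076). Cry2 was 45.5 ± 7.13 and 38.8 ± 3.30 CPM (SD, n = 5 each) and was not called.

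Clock, the partner of BMAL1, rose modestly (log2 fold change 0.30 ± 0.10 (SE), adjusted p = 0.026) with levels of 96.3, 132, 128, 99.4 and 112 CPM at ZT08 and 151, 134, 170.5, 134 and 148 CPM at ZT20. Its call was lost without replicate 1 of ZT08, replicate 1 of ZT20 or replicate 3 of ZT20. The repressor Bhlhe41 was 4.63, 4.94, 4.36, 3.88 and 4.84 CPM at ZT08 and 2.98, 3.51, 2.06, 3.03 and 2.08 CPM at ZT20 (log2 fold change -0.78 ± 0.23 (SE), adjusted p = 0.016), and its call was lost with library batch in place of the RUVs factors. Ciart, another repressor of the loop, fell from 1.42 ± 0.657 to 0.514 ± 0.275 CPM (SD, n = 5 each), with a log2 fold change of -1.49 ± 0.46 (SE) and an adjusted p of 0.021. At these low levels the call was lost without a filter and without any of replicates 1 and 2 of ZT08 or 3 and 4 of ZT20. Npas2, Rora, Nfil3, Hlf and Bhlhe40 were not called in cKOt mice.

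**Figure D2:**
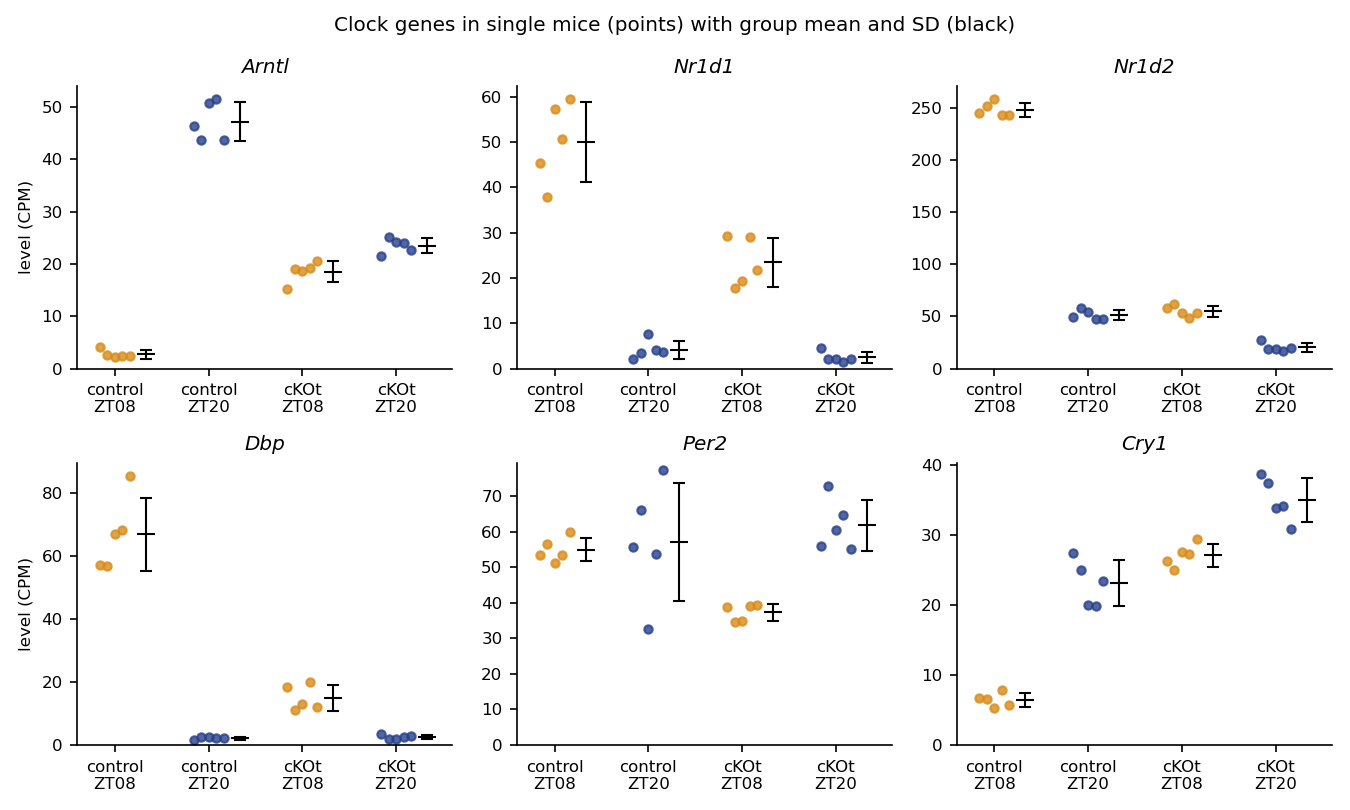
Levels of 6 clock genes in CPM in each of 5 control and 5 cKOt mice at ZT08 (orange) and ZT20 (blue). Black marks give the mean and SD. In cKOt mice Nr1d1, Nr1d2 and Dbp were lower at ZT20 and Per2 and Cry1 were higher, while the control mice covered a wider range of Arntl levels.

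A rule took the 12 largest increases and 12 largest decreases among protein-coding genes that were called, had a mean level of 5 CPM or more and did not overlap between the groups. Several of the increases were in genes of ER folding. Sdf2l1, the largest increase and a component of an ER chaperone complex, was 2.83, 1.70, 4.52, 3.46 and 4.20 CPM at ZT08 and 8.76, 12.8, 8.69, 10.2 and 9.74 CPM at ZT20 (log2 fold change 1.64 ± 0.24 (SE), adjusted p = 2.57e-06). Hspa5, the main ER chaperone BiP, was 326, 316, 397, 324 and 396 CPM at ZT08 and 641, 757, 798, 629.5 and 673 CPM at ZT20 (log2 fold change 0.97 ± 0.15 (SE), adjusted p = 1.49e-05). Manf and Creld2, both ER proteins induced when folding is disturbed, had log2 fold changes of 0.94 ± 0.17 and 0.94 ± 0.19 (SE). Hsp90aa1, the inducible cytosolic HSP90, was 124, 130.2, 135, 113 and 139 CPM at ZT08 and 250.1, 276, 248, 205 and 203 CPM at ZT20 (log2 fold change 0.85 ± 0.13 (SE), adjusted p = 4.76e-06). For these 5 genes the lowest mouse at ZT20 was above the highest at ZT08, as the rule required.

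The other increases came from several functions. Tfrc, the transferrin receptor for iron uptake, was 100.4, 127, 119, 111 and 112 CPM at ZT08 and 184, 186, 271, 220.4 and 232 CPM at ZT20 (log2 fold change 0.87 ± 0.09 (SE), adjusted p = 9.21e-10). Alas1, which makes the first and rate-limiting enzyme of heme synthesis, was 106, 69.9, 90.8, 85.2 and 93.8 CPM at ZT08 and 183, 145, 128, 161 and 129.9 CPM at ZT20 (log2 fold change 0.83 ± 0.14 (SE), adjusted p = 3.61e-05). The orphan monocarboxylate transporter gene Slc16a14 was 59.6, 47.0, 59.2, 52.0 and 56.6 CPM at ZT08 and 174, 127, 121, 114 and 109.6 CPM at ZT20 (log2 fold change 1.19 ± 0.22 (SE), adjusted p = 1.94e-04). In Slc16a14, 1 mouse at ZT20 stood above the others. Gldc, of the glycine cleavage system, rose by 0.88 ± 0.15, the receptor phosphatase Ptpru by 0.86 ± 0.14 and the matrix glycoprotein Adamtsl2 by 0.92 ± 0.17 (log2 fold change ± SE).

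Among the decreases, Cyp24a1, which inactivates vitamin D, was 83.3, 318, 70.8, 96.7 and 126 CPM at ZT08 and 51.2, 24.5, 15.2, 39.5 and 42.4 CPM at ZT20 (log2 fold change -2.06 ± 0.51 (SE), adjusted p = 0.00378). The highest mouse at ZT08 was replicate 2, and without it the log2 fold change was -1.38 and the call was lost (adjusted p = 0.077). Il5ra, the alpha chain of the interleukin 5 receptor, was 12.3, 16.3, 9.95, 13.8 and 11.8 CPM at ZT08 and 4.38, 5.51, 4.24, 4.81 and 5.89 CPM at ZT20 (log2 fold change -1.41 ± 0.18 (SE), adjusted p = 1.02e-07). The groups were separate for both genes, as the rule required. The hypoxia-induced carbonic anhydrase Car9 was 12.0, 12.3, 10.1, 13.4 and 14.6 CPM at ZT08 and 4.05, 7.16, 5.93, 6.11 and 6.29 CPM at ZT20 (log2 fold change -1.10 ± 0.19 (SE), adjusted p = 3.69e-05). The DNA glycosylase Neil2 fell by 1.19, the cytochrome P450 Cyp2j9 by 0.99 and the FOXO target Depp1 by 1.28 on the log2 scale. The galectin Lgals4 fell by 0.96 and the zinc finger gene Zc3h6 by 0.87 on that scale. Cirbp, Nr1d1, Nr1d2 and Dbp completed the 12.

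Promoters were searched for 4 short motifs on both strands: the E-box CACGTG bound by BMAL1 with CLOCK, the D-box TTANGTAA bound by DBP and TEF, the heat shock element GAANNTTC, and the cyclic AMP element (CRE) TGACGTCA. Each window runs from 250 bases before to 50 bases after a RefSeq transcription start (GRCm38.p6). Windows were found for 799 of 1054 symbols called higher and 927 of 1187 called lower. The E-box was in 11.3% of 1005 windows of genes called higher, 9.89% of 1203 windows of genes called lower and 9.49% of 14596 windows of all genes tested. The shares for the heat shock element were 5.67%, 5.24% and 5.90%, for the CRE 3.68%, 2.33% and 2.79%, and for the D-box 1.19%, 1.247% and 1.62%. Over all 32851 windows of the RefSeq table they were 7.15% for the E-box, 7.86% for the heat shock element, 1.79% for the CRE and 2.32% for the D-box. In the heat shock list 12 of 28 windows held a heat shock element, and in the clock list 6 of 21 held an E-box. A match is a run of letters, not a measured site.

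The 4 windows printed here belong to the genes with the smallest adjusted p, among the clock genes and the largest changes called, that held an E-box, a heat shock element or a CRE. No window was available for Hsp90aa1, Neil2, Manf, Per2 and Cyp24a1, so their promoters were not searched. Capitals mark the motif, and none of the matches overlapped another. Ptpru (chr4:131838229-131838528, minus strand) held a CRE whose first base lies 41 bases before the start. Slc16a14 (chr1:84935034-84935333, minus strand) held a heat shock element that began 4 bases before the start and ran across it. Depp1 (chr6:116650434-116650733, plus strand) held one 94 bases before the start, and Tef (chr15:81802423-81802722, plus strand) held an E-box 127 bases before it.
Ptpru: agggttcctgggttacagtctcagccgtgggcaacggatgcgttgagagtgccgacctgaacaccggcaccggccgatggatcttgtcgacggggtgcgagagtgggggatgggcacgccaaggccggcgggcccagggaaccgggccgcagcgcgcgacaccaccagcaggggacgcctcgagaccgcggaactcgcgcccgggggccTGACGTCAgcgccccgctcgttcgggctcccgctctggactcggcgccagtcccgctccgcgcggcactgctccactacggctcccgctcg
Slc16a14: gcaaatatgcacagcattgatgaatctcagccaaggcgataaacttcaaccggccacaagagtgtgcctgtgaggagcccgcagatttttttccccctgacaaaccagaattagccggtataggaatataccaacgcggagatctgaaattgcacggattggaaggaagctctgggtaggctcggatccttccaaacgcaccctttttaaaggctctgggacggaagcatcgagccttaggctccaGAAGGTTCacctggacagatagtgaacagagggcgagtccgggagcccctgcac
Depp1: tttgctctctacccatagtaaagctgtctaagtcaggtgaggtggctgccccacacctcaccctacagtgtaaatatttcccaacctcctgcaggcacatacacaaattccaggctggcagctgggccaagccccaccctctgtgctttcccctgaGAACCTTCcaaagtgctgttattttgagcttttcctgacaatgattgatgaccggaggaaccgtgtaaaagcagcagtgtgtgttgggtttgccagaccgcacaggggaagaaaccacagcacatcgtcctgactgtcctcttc
Tef: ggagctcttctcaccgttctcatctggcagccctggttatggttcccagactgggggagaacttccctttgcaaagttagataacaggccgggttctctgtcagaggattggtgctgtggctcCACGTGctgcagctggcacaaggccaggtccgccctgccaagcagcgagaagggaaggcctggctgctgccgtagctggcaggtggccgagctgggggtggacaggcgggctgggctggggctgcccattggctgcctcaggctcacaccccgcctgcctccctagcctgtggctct
Ptpru and Slc16a14 were higher at ZT20, while Depp1 and Tef were lower. The heat shock element thus stood in a promoter of a gene that rose and in one of a gene that fell.

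Most of the heat shock genes tested were higher at night. Of 26 chaperones, co-chaperones and their factor Hsf1, 16 were called higher and none lower (0), against 6.78% of all genes called higher, and the list's median log2 fold change was 0.36 against -0.01 over all genes tested. In control mice 13 were called higher. No member was called for a difference between the genotypes. Fkbp4, a co-chaperone of steroid receptors, was 157, 128, 173, 188 and 173 CPM at ZT08 and 227, 226, 186, 212 and 206 CPM at ZT20 (log2 fold change 0.47 ± 0.07 (SE), adjusted p = 2.35e-06). The HSP110 family gene Hspa4 was 178, 197, 205, 159 and 177 CPM at ZT08 and 215, 249, 256, 233 and 218 CPM at ZT20 (log2 fold change 0.30 ± 0.04 (SE), adjusted p = 2.38e-06). The mice of the 2 times overlapped in Fkbp4 and not in Hspa4. Chordc1 (0.64), P4ha1 (0.60), Ahsa2 (0.59) and Hsph1 (0.55) also had log2 fold changes above 0.5 and were chosen after their values were seen. The Hsph1 call was lost in 6 of the 18 other fits. The list's count was 12 in the fit of the 10 mice alone and 14 to 17 when each mouse was left out.

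The cold-inducible gene Cirbp, which is known to respond to temperature in the direction opposite to the heat shock genes, was 51.0, 39.0, 37.6, 56.7 and 37.5 CPM at ZT08 and 24.2, 12.8, 13.2, 21.6 and 22.8 CPM at ZT20 (log2 fold change -1.09 ± 0.16 (SE), adjusted p = 3.16e-06). Its lowest mouse at ZT08 was above its highest at ZT20, as the rule for the largest decreases required. Its control level was 30.7 ± 4.17 CPM at ZT08 and 18.8 ± 3.59 CPM at ZT20 (SD, n = 5 each), with a log2 fold change of -0.61 ± 0.16 (SE). The other member of the pair, Rbm3, was not called.

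Most ER folding genes rose as well. Of 36 members, 21 were called higher and 1 lower at ZT20, against 6.78% and 7.64% of all genes, with a median log2 fold change of 0.23. In control mice 15 were called higher and 1 lower, and no difference between genotypes was called. Besides Sdf2l1, Hspa5, Manf and Creld2, the co-chaperone Dnajb11 was 83.0, 84.9, 97.2, 79.3 and 90.2 CPM at ZT08 and 120.0, 145, 144, 123 and 118 CPM at ZT20 (log2 fold change 0.55 ± 0.07 (SE), adjusted p = 4.50e-07). The ER HSP90 paralogue Hsp90b1 was 319, 395, 442, 330.0 and 406 CPM at ZT08 and 553, 785, 717, 569 and 566 CPM at ZT20 (log2 fold change 0.68 ± 0.11 (SE), adjusted p = 1.40e-05). In both genes every mouse at ZT20 exceeded every mouse at ZT08. The disulfide isomerases Pdia3, Pdia4 and Pdia6, the lectin chaperones Calr and Canx, and the degradation factors Sel1l and Edem1 were also called higher, with log2 fold changes from 0.20 to 0.51. These were named after their values were seen, and the Pdia4 call was lost without replicate 2 of ZT08 and without replicate 2 of ZT20. Trib3, a pseudokinase induced by ATF4, was the member called lower, at 0.979 ± 0.293 against 0.283 ± 0.133 CPM (SD, n = 5 each). Without replicate 2 of ZT08 15 members were called higher, the lowest count when each mouse was left out.

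**Figure D3:**
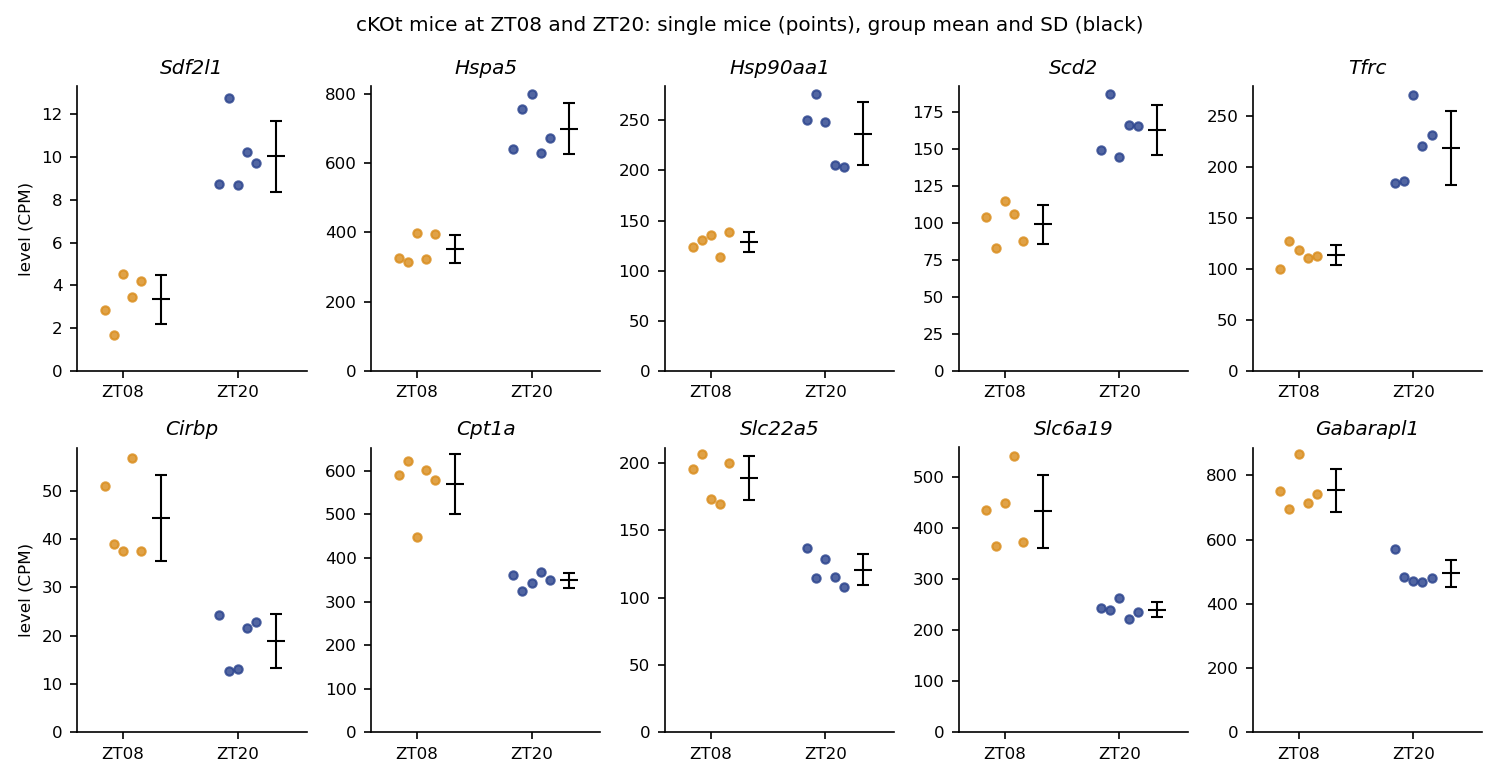
Levels of 10 genes in CPM in each cKOt mouse at ZT08 (orange) and ZT20 (blue), with the mean and SD in black. The upper row holds genes called higher at ZT20 (Sdf2l1, Hspa5, Hsp90aa1, Scd2, Tfrc) and the lower row genes called lower (Cirbp, Cpt1a, Slc22a5, Slc6a19, Gabarapl1). In all 10 genes the 2 groups of 5 mice did not overlap. The rule for the largest changes required this of Sdf2l1, Hspa5, Hsp90aa1, Tfrc and Cirbp.

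Nearly all called genes of lipid synthesis were higher at night. Of 23 genes of cholesterol synthesis and uptake, 10 were called higher and none lower (0), against 6.78% and 7.64% of all genes, with a median log2 fold change of 0.17. The sterol demethylation enzyme gene Msmo1 was 29.0, 29.4, 44.1, 27.9 and 37.2 CPM at ZT08 and 47.1, 53.2, 56.7, 69.3 and 58.3 CPM at ZT20 (log2 fold change 0.70 ± 0.14 (SE), adjusted p = 3.57e-04). Lss, lanosterol synthase, was 26.6, 25.6, 23.1, 28.7 and 27.0 CPM at ZT08 and 29.0, 33.2, 29.2, 39.8 and 35.7 CPM at ZT20 (log2 fold change 0.39 ± 0.09 (SE), adjusted p = 0.0015). Mvd was called with a log2 fold change of 0.29 ± 0.07 (SE), but its levels overlapped widely at 35.2 ± 9.12 and 36.6 ± 5.24 CPM (SD, n = 5 each), and the call was lost without the RUVs factors or with batch in their place. The list had 6 calls without replicate 2 of ZT08, without replicate 4 of ZT20, and in the fit of the 10 mice alone.

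Of 15 genes of fatty acid synthesis, 3 were called higher and 1 lower, against 6.78% and 7.64% of all genes, with a median of 0.07. The desaturase gene Scd2 was 104, 83.0, 115, 106 and 87.4 CPM at ZT08 and 149, 187, 144, 166 and 165 CPM at ZT20 (log2 fold change 0.75 ± 0.09 (SE), adjusted p = 1.52e-07). Acly, which makes cytosolic acetyl-CoA, was 165, 155, 155, 202 and 162 CPM at ZT08 and 230.1, 228, 186, 209 and 218 CPM at ZT20 (log2 fold change 0.42 ± 0.06 (SE), adjusted p = 2.44e-06), with overlap of 1 mouse at each time. Srebf1, the transcription factor of the pathway, was 20.1, 11.8, 16.3, 28.8 and 18.0 CPM at ZT08 and 27.9, 30.0, 17.1, 32.1 and 27.7 CPM at ZT20 (log2 fold change 0.79 ± 0.14 (SE), adjusted p = 5.98e-05), with overlap, and its call was lost without the RUVs factors or with batch in their place. Acss2, which activates acetate, was lower at ZT20 (log2 fold change -0.27 ± 0.05 (SE), adjusted p = 3.80e-05).

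The called genes of fatty acid oxidation went the other way. Of 34 PPAR targets and oxidation genes, none (0) was called higher and 12 were called lower, against 7.64% of all genes, with a median log2 fold change of -0.19. In control mice 3 were called higher and 4 lower, with a median of 0.04. Cpt1a, the gate of mitochondrial fatty acid import, was 590.0, 624, 449, 603 and 579 CPM at ZT08 and 361, 324, 342, 369 and 349 CPM at ZT20 (log2 fold change -0.68 ± 0.07 (SE), adjusted p = 3.56e-10). The carnitine transporter gene Slc22a5 was 195, 206, 173, 169.6 and 199 CPM at ZT08 and 137, 115, 128, 115 and 108 CPM at ZT20 (log2 fold change -0.66 ± 0.10 (SE), adjusted p = 8.29e-06). Neither gene overlapped between the times, and the same was true of Slc27a2, a fatty acid transporter and acyl-CoA synthetase, at 3734, 3893, 3530, 3574 and 3743 CPM at ZT08 and 2715, 2940, 3103, 3067 and 2617 CPM at ZT20 (log2 fold change -0.37 ± 0.06 (SE), adjusted p = 1.01e-05).

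Other members of this list had wide spreads between mice at ZT08. They are named after their values were seen. Pdk4, which restrains glucose oxidation, was 64.6, 96.2, 21.8, 31.5 and 83.4 CPM at ZT08 and 57.5, 19.7, 18.5, 15.8 and 17.2 CPM at ZT20 (log2 fold change -1.34 ± 0.33 (SE), adjusted p = 0.00371). Angptl4, a fasting-induced lipase inhibitor, was 28.4, 30.3, 5.87, 17.9 and 42.4 CPM at ZT08 and 21.3, 4.11, 5.67, 6.64 and 5.28 CPM at ZT20 (log2 fold change -1.53 ± 0.43 (SE), adjusted p = 0.011). In both genes replicate 1 of ZT20 was the highest mouse of its time and lay above replicates 3 and 4 of ZT08. The Angptl4 call was lost without replicate 2 of ZT08 and without replicate 5 of ZT08. Acot2, a mitochondrial thioesterase, was 18.3, 21.5, 10.8, 16.4 and 16.9 CPM at ZT08 and 10.5, 8.66, 9.64, 7.73 and 8.63 CPM at ZT20 (log2 fold change -0.83 ± 0.16 (SE), adjusted p = 1.71e-04), and Slc25a20, the carnitine-acylcarnitine carrier, had a log2 fold change of -0.49 ± 0.12 (SE). The change differed from that of control mice in Pdk4 (difference -2.08, adjusted p = 0.00727), Acot2 (-1.11, adjusted p = 0.0017) and Slc25a20 (-0.69, adjusted p = 0.01). The differences in Pdk4 and Slc25a20 were lost with batch in place of the RUVs factors, and that in Pdk4 also in the 20 mice alone. The list's count was 7 without replicate 2 of ZT08, 8 without replicate 5 of ZT08, 7 in the fit of the 10 mice alone and up to 16 when another mouse was left out.

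The proximal tubule transporters that were called were all lower at night. Of 36 genes of solute transport, 10 were called lower and none higher (0), against 7.64% and 6.78% of all genes, with a median log2 fold change of -0.14, while in control mice 4 were lower and 2 higher. Slc6a19, the main neutral amino acid transporter of the brush border, was 437, 365, 449, 542 and 373 CPM at ZT08 and 243, 239, 264, 223 and 236 CPM at ZT20 (log2 fold change -0.85 ± 0.11 (SE), adjusted p = 6.47e-07). Slc7a9, the light chain of the cystine transporter, was 173, 153, 166, 176 and 160.3 CPM at ZT08 and 125, 118, 111, 122 and 128 CPM at ZT20 (log2 fold change -0.45 ± 0.08 (SE), adjusted p = 4.53e-05). The taurine transporter gene Slc6a6 was 644, 580.3, 583, 733 and 638 CPM at ZT08 and 491, 451, 386, 440.2 and 464 CPM at ZT20 (log2 fold change -0.46 ± 0.08 (SE), adjusted p = 5.98e-05). None of these 3 overlapped between times. The glucose transporter gene Slc2a2 (-0.41), the organic anion transporter gene Slc22a8 (-0.52) and the drug pump genes Abcb1a (-0.59) and Abcb1b (-0.57), named after their values were seen, were also called lower (log2 fold changes). Of the 18 other fits, the call was lost in 3 for Slc22a8, 8 for Abcb1a and 9 for Abcb1b. Among the 9 proximal tubule markers the median log2 fold change was -0.12, with 8 below 0 and 2 called lower, and the difference in their summed level was not called (exact permutation p = 0.60). Lrp2, Cubn, Slc34a1, Slc5a2, Slc22a6 and Slc13a3 are in both the marker list and the transporter list, so the 2 medians do not come from separate genes. The part of the markers in the transporter result was not tested. The list had 6 calls without a filter or with batch in place of the RUVs factors, and 4 in the fit of the 10 mice alone.

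The shares of salt and water transport genes called, 17.9% and 16.7%, were near the 14.4% of all genes. Of 28 genes of sodium chloride and potassium transport, 4 were called higher and 1 lower, with a median of 0.00. Kcnj1, the potassium channel ROMK, was 259.6, 305, 267, 236 and 260.1 CPM at ZT08 and 288, 378, 349, 354 and 371 CPM at ZT20 (log2 fold change 0.34 ± 0.08 (SE), adjusted p = 0.00141), with overlap. Kcnj10, a basolateral potassium channel of the distal tubule, was 79.6, 90.9, 80.5, 93.4 and 89.0 CPM at ZT08 and 97.98, 104, 108, 108 and 112 CPM at ZT20 (log2 fold change 0.28 ± 0.06 (SE), adjusted p = 0.00159), without overlap. Scnn1a, of the epithelial sodium channel, had a small called difference (0.29 on the log2 scale) that was lost without the RUVs factors, with batch in their place and without replicate 1 of ZT08. Of 12 genes of water transport, the vasopressin receptor gene Avpr2 was higher (log2 fold change 0.44 ± 0.09 (SE), adjusted p = 2.88e-04) and Aqp3 lower (log2 fold change -0.28 ± 0.08 (SE), adjusted p = 0.012), and the Avpr2 call was lost without the RUVs factors or with batch in their place. The Aqp3 call was lost without replicate 4 of ZT08.

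In the autophagy and lysosome list, 7 of 31 members were called lower and 1 higher, against 7.64% and 6.78% of all genes. Gabarapl1, an ATG8 family gene and FOXO target, was 751, 696, 866, 715 and 742 CPM at ZT08 and 569.5, 482, 473, 469 and 482 CPM at ZT20 (log2 fold change -0.62 ± 0.07 (SE), adjusted p = 9.21e-10). Wipi1, which acts at the forming autophagosome, was 52.8, 51.2, 48.3, 49.4 and 45.5 CPM at ZT08 and 34.8, 28.2, 27.4, 28.5 and 31.2 CPM at ZT20 (log2 fold change -0.70 ± 0.08 (SE), adjusted p = 2.12e-08). Atg13, of the ULK1 initiation complex, was 58.2, 53.2, 55.3, 63.7 and 59.1 CPM at ZT08 and 49.1, 40.2, 43.3, 39.2 and 43.5 CPM at ZT20 (log2 fold change -0.38 ± 0.06 (SE), adjusted p = 2.55e-06). These 3 were separate between the times. Ulk1, Sqstm1, Map1lc3b and Atg14, named after their values were seen, had log2 fold changes of -0.22, -0.18, -0.17 and -0.22, and their groups overlapped. Of the 18 other fits, the call was lost in 5 for Ulk1, 6 for Map1lc3b and 8 for Atg14. The count called lower was 3 in the fit of the 10 mice alone. Atp6v1h was called higher (0.14), and this was lost in 5 of the 18 other fits, among them the fit without the RUVs factors.

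In the list of glucocorticoid and fasting responsive genes, 2 of 27 were called higher and 4 lower. The share called higher was near the 6.78% of all genes, and 7.64% of all genes were lower. Txnip, which restrains glucose uptake, was 467, 488, 361, 394 and 412 CPM at ZT08 and 308, 285, 252.2, 313 and 282 CPM at ZT20 (log2 fold change -0.56 ± 0.11 (SE), adjusted p = 4.44e-04). The metallothionein gene Mt2 was 4.17, 4.14, 4.20, 5.399 and 5.09 CPM at ZT08 and 2.66, 2.20, 0.9003, 3.24 and 2.59 CPM at ZT20 (log2 fold change -0.80 ± 0.21 (SE), adjusted p = 0.0057). Igfbp1 fell from 2.56 ± 0.778 to 1.06 ± 0.823 CPM (SD, n = 5 each; log2 fold change -1.28 ± 0.37 (SE), adjusted p = 0.013), and its call was lost without replicate 2 of ZT20. Fkbp5, a glucocorticoid target, was 110.1, 62.0, 81.9, 110.2 and 91.1 CPM at ZT08 and 201, 141, 108, 129 and 108 CPM at ZT20 (log2 fold change 0.68 ± 0.20 (SE), adjusted p = 0.015). Cdkn1a, a cell cycle inhibitor, was 19.1, 11.2, 16.6, 13.4 and 13.3 CPM at ZT08 and 40.8, 21.3, 16.0, 19.6 and 11.8 CPM at ZT20 (log2 fold change 0.65 ± 0.21 (SE), adjusted p = 0.03). Both calls in the higher direction rested on few mice: they were lost without the RUVs factors, with batch in their place, without replicate 2 of ZT08 and without replicate 1 of ZT20, the highest mouse in both genes. The Cdkn1a call was lost in 9 of the 18 other fits, with limma-trend and without a filter among them.

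In NAD metabolism 4 of 23 genes were called higher and 3 lower, against 6.78% and 7.64% of all genes, with a median of 0.01. Acmsd, which diverts tryptophan from NAD synthesis, was 128, 129, 153, 133 and 144 CPM at ZT08 and 199.5, 226, 236, 235 and 196 CPM at ZT20 (log2 fold change 0.65 ± 0.15 (SE), adjusted p = 0.00279), without overlap. Naprt, which uses nicotinic acid, was 30.4, 20.8, 24.7, 35.5 and 27.8 CPM at ZT08 and 20.3, 20.2, 16.1, 22.1 and 20.6 CPM at ZT20 (log2 fold change -0.29 ± 0.06 (SE), adjusted p = 0.00125), and Qprt, of the tryptophan route, had a log2 fold change of -0.23 ± 0.06 (SE). Nadk (0.16) and Nmnat1 (0.23) were called higher, but both calls were lost without the RUVs factors and with batch in their place. The Nmnat1 call was also lost without any of replicates 2 and 5 of ZT08 and 1 and 4 of ZT20. Sirt3 was called lower (-0.21), and this was lost without any of 4 mice (replicate 2 of ZT08 and replicates 2, 3 and 4 of ZT20). Nt5e, chosen after its values were seen, was 290.2, 251.8, 311, 282 and 329 CPM at ZT08 and 411, 434, 435, 363 and 366 CPM at ZT20 (log2 fold change 0.42 ± 0.13 (SE), adjusted p = 0.026), and its change was smaller than in control mice (1.22, difference adjusted p = 0.012). The Nt5e call was lost without any of replicate 2 of ZT08 and replicates 1 and 2 of ZT20, and the genotype difference with batch in place of the RUVs factors.

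The same contrast was made in the 10 control mice at ZT08 and ZT20, which share no mouse with the cKOt contrast. In control mice 2204 genes (14.2%) were called, 1252 higher and 952 lower. Of the cKOt calls, 841 were also called in the same direction in control mice, which is 37.5% of the cKOt calls and 38.2% of the control calls, and 22 were called in opposite directions. Of all cKOt calls, 1969 (87.8%) had the same sign in control mice. A call in one genotype alone is not a difference between them, so the difference of the 2 changes was tested. It was called for 270 genes (1.74% of those tested), 86 with a more positive change in cKOt mice and 184 with a more negative one. By the DESeq2 Wald test 140 were more positive and 191 more negative. Of the 2242 cKOt calls, 114 (5.08%) were called in this test. In 84 of these the absolute change was larger in cKOt than in control mice, and in 85 the 2 genotypes had opposite signs. These genes were chosen by their call in cKOt mice, which favours larger changes there, and of the 156 other genes called in the test 151 were called in control mice only.

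**Figure D4:**
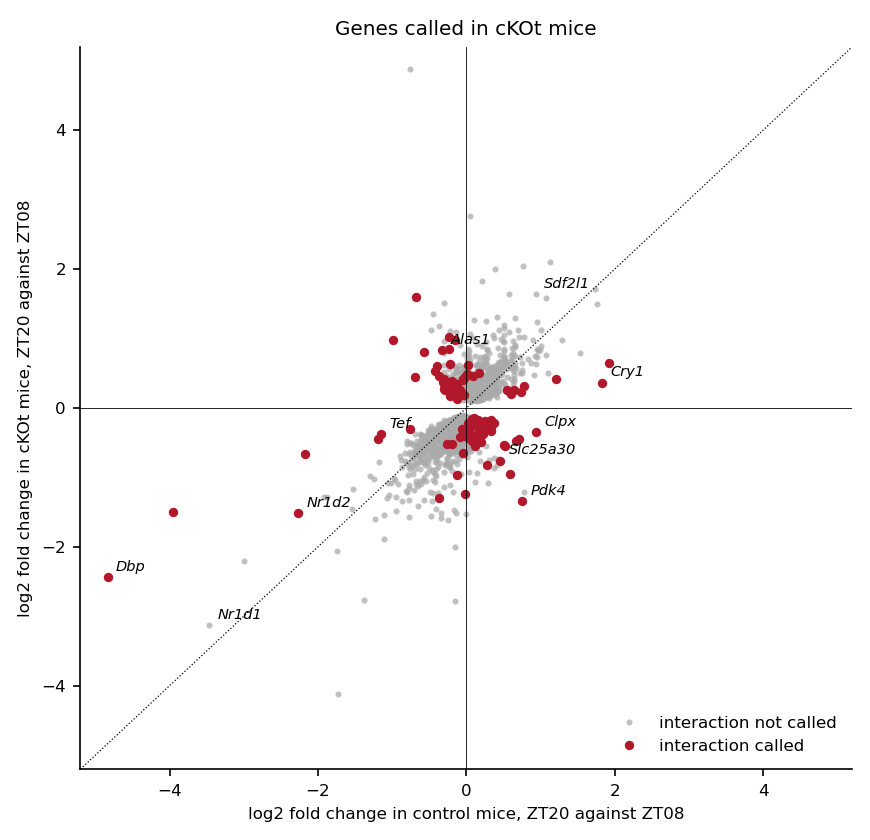
Log2 fold change of ZT20 against ZT08 in cKOt mice (vertical axis) against that in control mice (horizontal axis) for the 2242 genes called in cKOt mice. Red points are the 114 genes whose change differed between genotypes, grey points are the others, and the dotted line marks equal change. Dbp lies far above the line at the left, with -2.44 in cKOt and -4.83 in control mice, while Nr1d1 lies near it.

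Clock genes made up part of these differences, since 10 of the 19 were called in the test. The change was smaller in cKOt than in control mice for Dbp (-2.44 against -4.83, difference 2.39 ± 0.36 (SE), adjusted p = 1.32e-05). It was also smaller for Cry1 (0.37 against 1.84, adjusted p = 4.41e-10), Per3 (-0.66 against -2.18, adjusted p = 1.90e-05) and Tef (-0.38 against -1.15, adjusted p = 1.06e-04). Nr1d1 was lower at ZT20 in both genotypes, with log2 fold changes of -3.12 and -3.47, and its difference of 0.34 had a 95% confidence interval from -0.46 to 1.15. Npas2 and Nfil3 had control log2 fold changes of 3.94 and 2.45 and cKOt values of -0.05 and -0.02.

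Outside the clock, 3 of the 6 genes with the smallest adjusted p of the test and a smaller change in cKOt mice were Rhobtb1, Ypel2 and Clpx. Rhobtb1 had log2 fold changes of -0.04 in cKOt and 1.10 in control mice. Ypel2 had -0.33 and 1.81. Clpx, of the mitochondrial ClpXP protease, was called in opposite directions, with -0.35 and 0.94, and its cKOt call was lost without the RUVs factors. The cKOt levels of Clpx were 418, 505, 375, 333 and 399.6 CPM at ZT08 and 324, 329, 381, 318 and 304 CPM at ZT20, against 159, 155, 174, 143 and 158 CPM at ZT08 and 322, 330.4, 363, 283 and 272 CPM at ZT20 in control mice.

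The 6 genes with the smallest adjusted p and a larger change in cKOt mice were Lrig2, Slc25a30, Ak4, Alas1, Fpgs and Ddo. Alas1 was 206, 187, 222, 200.5 and 250.3 CPM at ZT08 and 159, 192, 155, 149.7 and 189.5 CPM at ZT20 in control mice, a log2 fold change of -0.33 that was not called, so the cKOt rise of 0.83 differed from it by 1.16 ± 0.20 (SE, adjusted p = 1.32e-04). Slc25a30, a mitochondrial carrier gene, was 285, 299, 219.6, 269 and 290.5 CPM at ZT08 and 183, 139.7, 156, 149 and 176 CPM at ZT20 in cKOt mice and 124, 134, 146, 157 and 99.0 CPM at ZT08 and 171, 187, 233, 176 and 141 CPM at ZT20 in control mice. It was called in opposite directions (-0.76 and 0.46). The same held for Ak4, a mitochondrial adenylate kinase gene (0.46 and -0.37), and for Lrig2 (-0.55 and 0.52). Fpgs, which retains folates in cells, had -0.41 and 0.10, and the peroxisomal D-aspartate oxidase gene Ddo had 0.41 and -0.04. The differences in Fpgs and Ddo were lost with batch in place of the RUVs factors and in the 20 mice alone, and that in Fpgs also in all 60 mice without the factors.

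The means at the other 4 times were set beside those at ZT08 and ZT20 in cKOt mice. Of the 1054 genes called higher at ZT20, 550 had their highest cKOt mean at ZT20, 332 at ZT16 and 128 at ZT0, and 622 had their lowest at ZT08. Of the 1188 called lower, 646 had their highest mean at ZT08, 365 at ZT12 and 157 at ZT04, and 620 had their lowest at ZT20. These genes were chosen by the difference between ZT20 and ZT08 in the same mice, which favours extremes at ZT08 and ZT20. The counts therefore do not show when the cKOt kidney as a whole has its extremes. Nr1d1 in cKOt mice had its highest mean at ZT08, 23.4 ± 5.43 CPM, and in control mice at ZT04, 74.5 ± 7.79 CPM (SD, n = 5 each). Hspa5 was higher at ZT16 than at ZT20 in cKOt mice, with 918 ± 156 against 699.6 ± 74.3 CPM (SD, n = 5 each). Cpt1a was 539 ± 59.4 CPM at ZT12 and 345 ± 26.9 CPM at ZT16 (SD, n = 5 each), close to the values at ZT08 and ZT20. Differences between these other times were not tested.

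**Figure D5:**
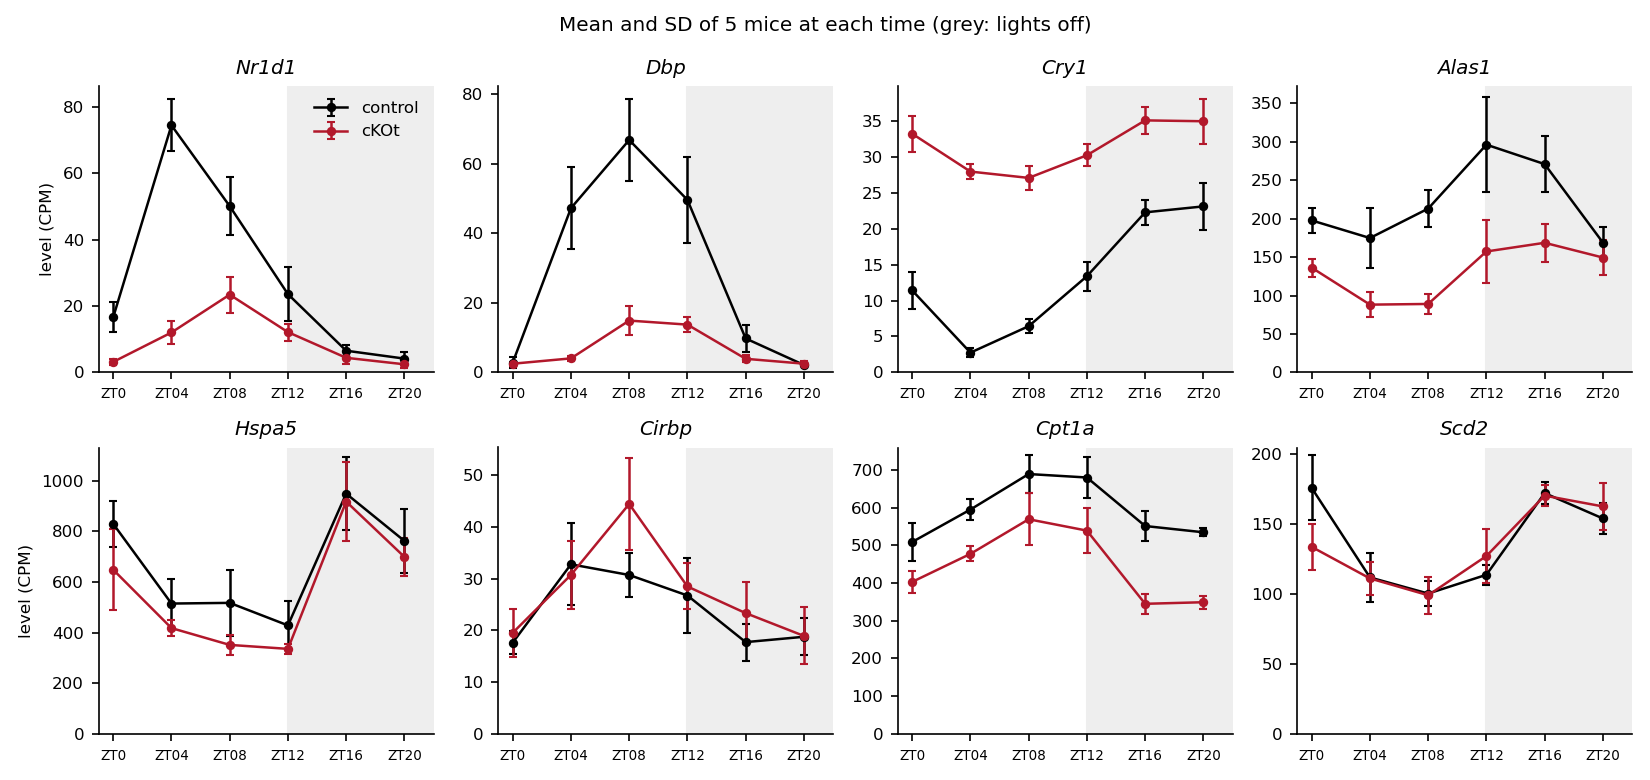
Mean level in CPM with SD (5 mice at each point) of 8 genes at 6 times of day in cKOt (red) and control (black) mice, with the dark phase shaded. Nr1d1 and Dbp are low at ZT20 in both genotypes, and Hspa5 is highest at ZT16 in both.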

How the data were processed

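RNA from half-kidneys was sequenced by the authors as single reads of TruSeq Stranded mRNA libraries. Per the labels, reads were trimmed with cutadapt (version 1.8), aligned to GRCm38 with STAR (version 2.5.3a) and counted per Ensembl gene with HTSeq (version 0.9.1). The strand setting of the counting is not given in the sources used here. The deposited values are raw counts per gene and sample, without normalization. Lines of the counting program that name no gene were left out. Their shares are given for the 10 cKOt libraries. Of the sum of counts on genes, no feature and ambiguous, no feature made up 8.10% to 10.4%. Ambiguous made up 1.035% to 1.216% of that sum. With alignments that were not unique added to the sum, these made up 24.3% to 26.6% of it. Genes were named from GENCODE release M21.

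Genes that reached 1 CPM in any of the 60 samples were kept (15546 genes, 99.9% of counts). Counts were tested with edgeR (version 4.0.16, R version 4.3.3) by the quasi-likelihood F test, with TMM library sizes, a group per genotype and time, and 2 RUVs factors (logCPM with a prior count of 2, mice of a group as replicates). Benjamini-Hochberg adjustment was over all genes kept, and a gene was called at an adjusted p under 0.05. Alternatives used DESeq2 (version 1.42.0), limma (version 3.58.1), other filters, no factors, batch, a replicate block and fewer mice. The procedure was tested on simulated data. No 2 libraries were identical. Library batch was taken from the study's sample table, where batches 1 to 4 hold 1 of the cKOt mice at each time.

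Named genes are the clock genes, the 12 largest changes per direction (called, protein-coding, mean of at least 5 CPM, no overlap), up to 3 called members of each list per direction by adjusted p, and the 6 genes with the smallest adjusted p of the genotype difference in each of 2 classes. Sex-linked genes are not named, and some other genes counted in the lists are not reported here. Members and lists were chosen with earlier results of these data known. Lists are described by counts and medians, without set tests. Promoters are from RefSeq (GRCm38.p6).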

Additional observations from a re-analysis of the deposited data

Results flagged for a closer look

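Each group of 5 cKOt mice was examined for a mouse far from the others (Dixon's test) in the 104 genes named by the rules. Of 208 groups, 11 (5.29%) held one, and chance alone gives about 1 in 20. At ZT20 the highest mouse stood apart in Nr1d1 (4.61 CPM), Slc16a14 (174 CPM), Gabarapl1 (569.5 CPM) and Ypel2 (71.4 CPM), all in replicate 1 except for Ypel2 in replicate 5. The lowest mouse stood apart in Creld2 (25.7 CPM) and Trib3 (0.0501 CPM) at ZT20, and in Creld2 (11.8 CPM) and Cpt1a (449 CPM) at ZT08. At ZT08 the highest mouse stood apart in Rora (99.5 CPM), Cyp24a1 (318 CPM) and Acly (202 CPM). The Rora, Cyp24a1 and lower Creld2 values at ZT08 are those of replicate 2.

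For 22 of the genes named by the rules and reported here the change between ZT08 and ZT20 differed between genotypes (edgeR's quasi-likelihood test of the interaction, adjusted over 15546 genes). The values that follow are cKOt minus control differences of log2 fold changes. Among clock genes they were -3.74 for Arntl, -3.99 for Npas2, -2.47 for Nfil3 and -1.47 for Cry1. They were positive for Ciart (2.46), Dbp (2.39), Per3 (1.51), Tef (0.77) and Nr1d2 (0.75). Outside the clock, negative values were those of Ypel2 (-2.14), Clpx (-1.29), Cdkn1a (-1.28), Slc25a30 (-1.21), Rhobtb1 (-1.14), Lrig2 (-1.07), Lgals4 (-0.84), Mcm7 (-0.53) and Fpgs (-0.52). Positive values were those of Alas1 (1.16), Ak4 (0.83), Ddo (0.45) and Ndufaf4 (0.33). Of 19 other fits, the difference was lost in 14 for Lgals4, 9 for Nr1d2, 8 for Cdkn1a and 7 for Ndufaf4. It was lost in 3 each for Mcm7 and Fpgs and in 2 each for Ciart and Ddo.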

How the results depend on the processing

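The count of genes called in cKOt mice stayed within 1.5 times of 2242 with DESeq2 size factors (2230), the DESeq2 Wald test (2335), limma-trend (2176), no filter (1718), filterByExpr (2216), no RUVs factors (1542) and library batch in their place (1589). Without the RUVs factors 677 genes were called higher. With a fold of at least 1.5 added, 356 were called. The 10 mice alone, without the factors, gave 557 (273 higher, 284 lower). The 8 mice of batches 1 to 4, 1 of each time in each batch, gave 16 (8 higher, 8 lower). Leaving out each of the 10 mice gave 1480 to 2331 genes (675 to 1103 higher, 805 to 1228 lower), and the lowest count was without replicate 2 of ZT08. The difference between genotypes was called for 125 genes without RUVs factors (27 positive, 98 negative), 108 with batch in their place (22 and 86) and 95 in the 20 mice alone (23 and 72). The DESeq2 Wald test gave 140 positive ones. Leaving out each mouse gave 193 to 316 (49 to 101 positive, 144 to 215 negative), with 49 positive ones without replicate 2 of ZT08. In control mice 1422 genes were called without RUVs factors and 1247 with batch in their place. The causes of these moves were not tested.

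Of 93 named genes called in cKOt mice, 60 kept the call in the 10 mice alone, 11 in the 8 mice and 78 without replicate 2 of ZT08. Direction turned for Col18a1 without RUVs factors (-0.0356), with batch (-0.0521) and in the 10 mice alone (-0.0206), and for 2 genes that were not called. These were Rora with batch (0.0193), in the 8 mice (0.0547) and over the fits without 1 mouse (-0.151 to 0.0104), and Nfil3 over the fits without 1 mouse (-0.118 to 0.0702).

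Replicate numbers are shared between groups, and the mice were treated as unpaired. Correlations of residuals of the 5 same-numbered pairs at ZT08 and ZT20 ranged from 0.061 to 0.19, with a mean of 0.11. For the 20 pairs with different numbers they ranged from -0.26 to 0.32, with a mean of -0.026. So few pairs cannot show that the numbers carry no pairing. With the replicate number as a block 2235 genes were called in cKOt mice, 2185 in control mice and 258 for the difference between genotypes.

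Low transcripts such as Ciart, Trib3 and Havcr1 rest on few counts, and a difference that was not called is not shown to be absent. Library batches 5 and 6 hold mice of 1 time only. The p-values of the main fit rest on the spread between single mice that remains after the RUVs factors. That spread was estimated over all mice of the series, so it is not the unadjusted spread of the compared mice.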

Other observations

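Several lists held few calls, near or below the 14.4% of all genes called. Of 26 proliferation genes 1 was lower, the replication helicase subunit Mcm7 (log2 fold change -0.44 ± 0.10 (SE), adjusted p = 8.60e-04). Of 25 interferon-inducible genes 2 were higher, among them Rsad2, at 39.9, 45.0, 50.8, 41.5 and 35.2 CPM at ZT08 and 59.0, 67.6, 69.4, 61.2 and 66.2 CPM at ZT20 (log2 fold change 0.54 ± 0.08 (SE), adjusted p = 1.83e-06). Of 26 extracellular matrix genes, Col18a1 (0.20) was called higher, with CPM means of 103 at ZT08 and 101 at ZT20. The Col18a1 call was lost without a filter, and the direction turned without the RUVs factors (-0.04), with batch in their place (-0.05) and in the 10 mice alone (-0.02). Of 23 immediate early genes, Klf10 (-0.81) was lower, with 24.2, 27.1, 12.7, 15.9 and 16.9 CPM at ZT08 and 13.8, 9.37, 11.3, 10.1 and 9.69 CPM at ZT20. Of 83 cytoplasmic ribosomal protein genes 2 were called in each direction, Rpl7l1 (0.21) and Rpl3l (0.74) higher and Rpl3 (-0.17) and Rpl22 (-0.19) lower. The calls of Klf10, Rpl7l1, Rpl3l, Rpl3 and Rpl22 were lost without 1 or more single mice. Those of Rpl3l and Rpl22 were also lost without the RUVs factors and with batch in their place. Without a filter the calls of Klf10, Rpl3 and Rpl22 were lost too.

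Of all genes tested, 6.78% were called higher and 7.64% lower in cKOt mice. Few mitochondrial genes were called. Of 87 nuclear genes of oxidative phosphorylation 2 were called higher, the assembly factor gene Ndufaf4, at 43.5, 51.9, 51.8, 36.5 and 45.5 CPM at ZT08 and 63.4, 75.3, 74.5, 66.1 and 61.0 CPM at ZT20 (log2 fold change 0.51 ± 0.06 (SE), adjusted p = 6.35e-08), and Ndufab1 (0.24). None (0) of the 7 mitochondrially encoded members tested was called, and the range of their log2 fold changes was -0.18 to 0.01. The others are not analysed here. Of 31 proteasome genes 2 (6.45%) were called higher in cKOt mice, Psmd14 (0.20) and Psmd6 (0.13). In control mice 19 were called higher, where 14.2% of all genes were called in either direction. The median log2 fold change of the list was 0.17 in control and 0.02 in cKOt mice. The difference between genotypes was called for 1 of the proteasome genes. Of 21 NRF2 and glutathione genes 4 (19.05%) were higher, among them Srxn1 (0.30), Txnrd1 (0.25) and Ftl1 (0.30), and none was lower. Of 17 genes of gluconeogenesis and ammoniagenesis, Got1 (0.27) was higher and Pck2 (-0.36) lower, or 11.76% of the list against 14.4% of all genes. The calls of Psmd6, Ftl1 and Pck2 were lost without 1 or more single mice. Those of Psmd6 and Ftl1 were also lost without the RUVs factors and with batch in their place. The Ftl1 call was lost without a filter as well.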
